A study of Drosophila melanogaster with 13 samples.

Results

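Drosophila has 4 genes for dopamine receptors, Dop1R1, Dop1R2, Dop2R and DopEcR, and all 4 were found by symbol among the 17737 genes of the count table. Their transcripts were read in 13 libraries of GFP-labelled neurons taken by mouth aspiration from brains of the fruit fly. The TRH-Gal4 group, labelled through a driver named for the tryptophan hydroxylase of serotonin neurons, held 4 pools of cells, numbered 40, 45, 60 and 57 in their titles. The sNPFR-Gal4 group, labelled through a driver that takes its name from the short neuropeptide F receptor, held 1 pool, numbered 16, and 8 single cells, numbered 1 to 7 and 10. Pools contained 15 to 60 cells. Handling went with the driver, since TRH-Gal4 brains were dissociated after protease treatment and sNPFR-Gal4 brains pinned, and the 2 cannot be told apart. Pools had 12 cycles of cDNA amplification and single cells 17. Strain, age, sex and reporter line were not given in the sources used here, and no label names the animals.

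Dopamine acts on neurons through receptors that span the membrane and signal through G proteins. In flies, Dop1R1 and Dop1R2 are the D1-like receptors, known for raising cAMP and, for Dop1R2, calcium. Both have a part in odour memory in the mushroom body. Dop2R is the D2-like receptor, which signals through inhibitory G proteins and also serves dopamine neurons as an autoreceptor. DopEcR answers to dopamine and to ecdysteroid hormones. The D1-like and D2-like receptors thus act on cAMP in opposite directions.

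The libraries held 8.72 to 15.6 M reads in the TRH pools, 56.1 M in the sNPFR pool and 3.38 to 68.0 M in the single cells. Levels are given as CPM, the usual scaling of a read count by library size, and reads cannot be told from PCR copies, so intervals given here cover counting error only. Where no read was found, the level in the library may still have been as high as 3 reads, equal to 0.0535 CPM for the sNPFR pool and 0.656 CPM for cell 3. Transcript lost from a cell before amplification is not covered by this floor. The number of genes with at least 1 read was 6510 to 8604 in the TRH pools, 4634 in the sNPFR pool and 1310 to 4823 in the cells. Trh itself stood at 12310 to 17497 CPM in the TRH pools, against 0 reads for the sNPFR pool and 2 reads for the 8 cells together. SerT, the other serotonergic marker, stood at 1364 to 6017 CPM in the TRH pools, also with 0 and 2 reads in sNPFR. The gene of the other driver, sNPF-R, did not part the pools in this way. Its TRH range ran from 21.9 to 145.6 CPM, and the sNPFR pool fell inside it, at 139.7 CPM. Summed cells held more of it, at 1419 CPM, or 320.3 CPM without cell 7, with single cells from 0 to 2406 CPM. The neuronal markers elav, nSyb, brp and Syt1 summed to 5802 to 7137 CPM in the TRH pools, against 5543 CPM for the sNPFR pool and 6091 to 14306 CPM for single cells. elav was at 1.37 CPM in the sNPFR pool and at 0 reads in cell 5. Of the 8 glia markers, 2 had reads in every TRH pool, where the list summed to 83.4 to 547.1 CPM. In the sNPFR pool 3 of the 8 had reads, Eaat1 at 1105 CPM, alrm at 323.2 CPM and Gs2 at 160.8 CPM. The list summed to 1589 CPM there, with repo, nrv2, moody, wrapper and Gat at 0. In the cells the list summed to 0 to 129.7 CPM.

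The 4 receptors fell into 3 patterns. The D1-like genes Dop1R1 and Dop1R2 were seen in every TRH pool and were nearly absent from the sNPFR pool and from most sNPFR cells. Dop2R was present in all 13 libraries at overlapping levels. DopEcR was present in 12 of 13 libraries and was lower in the TRH pools than in the sNPFR pool and in the summed cells.

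**Figure D1:**
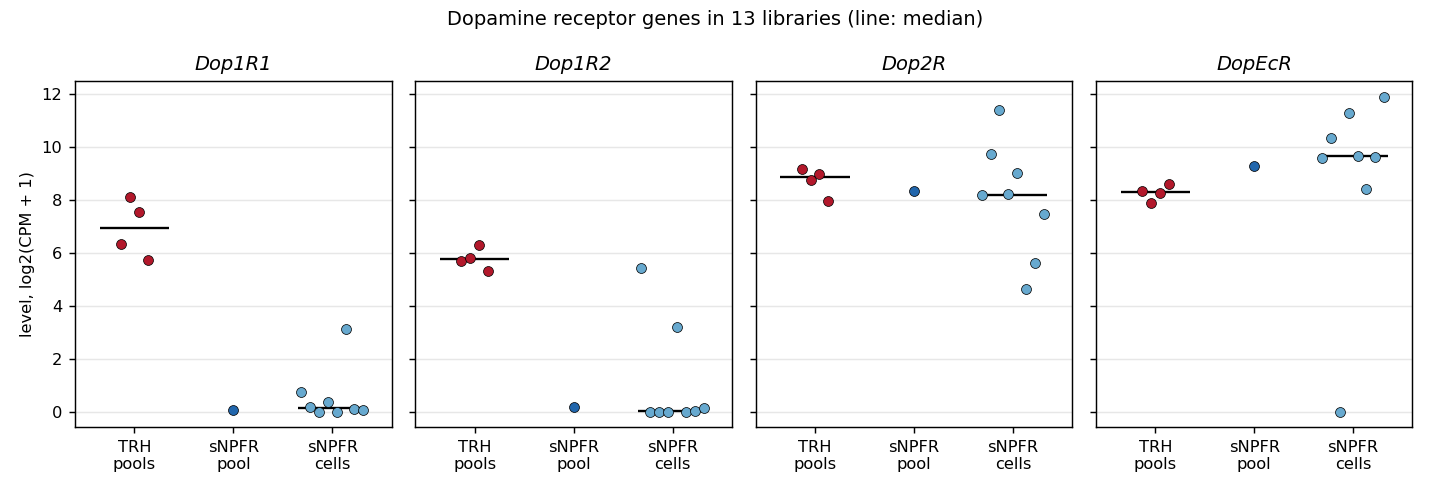
Level of each dopamine receptor gene in log2(CPM + 1) in the 4 TRH pools, the sNPFR pool and the 8 sNPFR cells, with 1 point per library and a line at the median. Dop1R1 and Dop1R2 were at 38.7 CPM or more in every TRH pool and near 0 in most sNPFR libraries, Dop2R overlapped, and DopEcR was at 0 in 1 cell.

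For the test, the 4 TRH pools were set against 2 sNPFR units, the pool and the added reads of the 8 cells, because cells from unnamed animals are not replicates. Log2 fold changes are TRH minus sNPFR from edgeR's quasi-likelihood test, fitted over 7426 genes. The value after ± is an approximate standard error worked back from the F statistic of the test. Adjusted p-values are Benjamini-Hochberg values over all tested genes, with a threshold of 0.05, and measure only the spread between these samples. Of all tested genes, 10.6% passed as higher in TRH and 3.03% as lower in TRH, 13.6% in either direction, and the median log2 fold change was 0.67. Of the 4 receptor genes, 1 was higher in TRH, 1 was lower and 2 did not pass, with a median of 2.13. All 4 passed the filter on low counts. Dop1R1 and Dop1R2 passed it through the TRH pools, so their being high there was in part a condition for being tested.

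Dop1R1 (FBgn0011582) lies on chromosome 3R from 14165379 to 14214810 on the minus strand of build BDGP6, with exons that cover 14565 bases. It stood at 80.2, 279.9, 188.1 and 52.7 CPM in TRH pools 40, 45, 60 and 57. The sNPFR pool had 2 reads of it, which is 0.0356 CPM (exact Poisson interval 0.00432 to 0.129 CPM). All TRH pools lay above every sNPFR library, and the pools differed among themselves more, relative to their mean, than for the other receptor genes. In a pool, fewer cells with the transcript and less transcript per cell cannot be told apart. Its coefficient of variation over the 4 pools was 69.5%, and 6.58% of the 3907 genes at 10 CPM or more in all TRH pools varied more.

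In single cells Dop1R1 reached 7.63 CPM in cell 6, from 60 reads, and was at or under 0.667 CPM in the other 7. It had 0 reads in cells 3 and 5, and in no cell did it reach the 10 CPM taken here as present. That is 0 of 8 cells (exact Clopper-Pearson interval 0% to 36.9%). The summed cells held 73 reads, or 0.566 CPM, which became 1.13 CPM without cell 7.

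The TRH mean of Dop1R1, 150.2 ± 104.3 CPM (SD, n = 4), was 4215-fold above the sNPFR pool, with a counting interval of 1167 to 34805, and 265.6-fold above the summed cells. The value against the summed cells turned on single cells, since it was 1401-fold without cell 6 and 133.0-fold without cell 7. The log2 fold change was 8.26 ± 1.99 (95% interval 3.55 to 12.97, adjusted p = 0.0381, edgeR's quasi-likelihood test). The call was lost whichever TRH pool was left out (adjusted p = 0.0571 to 0.0887) and without cell 7 (adjusted p = 0.0540). Genes with the same absence were common. Of the 3907 genes at 10 CPM or more in every TRH pool, 1478 (37.8%) were under 1 CPM in the sNPFR pool, and 619 (15.8%), Dop1R1 among them, were also under 1 CPM in the summed cells. The part of the smaller number of genes detected in sNPFR libraries in this difference was not tested.

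Mushroom body Kenyon cells are a known site of D1-like receptors, so the 4 Kenyon cell markers are given beside Dop1R1. All 4 had reads in every TRH pool, where they summed to 478.4 to 1101 CPM. In the sNPFR pool and cells 1 of the 4, mub, had reads, at 1063 CPM in the pool and 414.7 to 4634 CPM in the cells, and ey, toy and prt were at 0. ey, a transcription factor gene, stood at 46.1, 129.7, 41.6 and 17.0 CPM in TRH pools 40, 45, 60 and 57. ey and prt were highest in pool 45 and lowest in pool 57, as Dop1R1 was. toy was instead highest in pool 40, at 143.2 CPM, and mub lowest in pool 60, at 348.4 CPM. The part of Kenyon cells in the Dop1R1 level was not tested.

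Dop1R2 (FBgn0266137) lies on chromosome 3R from 29630304 to 29659984, minus strand, with 5164 bases of exon. It stood at 51.2, 55.5, 77.5 and 38.7 CPM in TRH pools 40, 45, 60 and 57, against 0.125 CPM, from 7 reads, in the sNPFR pool. The pools lay closer together than for Dop1R1, with a coefficient of variation of 29.0%, against a median of 34.7% over the 3907 genes.

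Among single cells Dop1R2 stood out in cell 1, at 42.0 CPM from 378 reads, which lies within the range of the TRH pools. Cell 5 had 8.31 CPM. Cells 2, 3, 4 and 6 had 0 reads, and cells 7 and 10 had 2 reads each. So 1 of 8 cells reached 10 CPM (interval 0.316% to 52.7%), and that cell held 378 of the 459 reads of the summed cells.

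The TRH mean of Dop1R2 was 55.8 ± 16.2 CPM (SD, n = 4), against 3.56 CPM in the summed cells, which became 0.675 CPM without cell 1 and 7.48 CPM without cell 7. All TRH pools were above both sNPFR units, as they were for 27.3% of tested genes. The log2 fold change of 4.20 ± 1.81 did not pass (95% interval -0.10 to 8.49, adjusted p = 0.157, edgeR). It passed with DESeq2 (log2 fold change 4.66, adjusted p = 0.000814), which called 3039 genes in all, against 1009 with edgeR. It also passed when cell 1 was left out (6.29, adjusted p = 0.0471, edgeR). With the sNPFR pool alone the log2 fold change was 8.42. Cell 1 held most of the reads in the cells, so leaving it out removes most of that signal. The fit with 1 sNPFR library takes its spread from the TRH pools alone. None of these 3 fits is taken as a result.

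Dop2R (FBgn0053517) lies on chromosome X from 20004680 to 20062706, minus strand, with 6530 bases of exon. It stood at 585.8, 434.0, 507.1 and 251.4 CPM in TRH pools 40, 45, 60 and 57. The sNPFR pool had 325.5 CPM and the summed cells 266.4 CPM, both within the range of the TRH pools. The sum leaned on single cells: without cell 7, the deepest library, it was 509.7 CPM, still within that range, and without cell 3 it was 176.8 CPM, below every TRH pool.

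All 8 single cells reached 10 CPM of Dop2R (interval 63.1% to 100%), but over a wide range. Cell 3 had 2705 CPM, and cells 2 and 5 had 854.1 and 526.3 CPM. Cells 4, 1 and 10 had 297.3, 291.6 and 176.6 CPM. Cells 7 and 6 were lowest, at 47.7 and 23.8 CPM. Few genes were found so widely in single cells: 156 genes, or 0.88% of the table, were at 10 CPM or more in all 8. Among the 1209 genes at 200 CPM or more in the summed cells, 153 (12.7%) were.

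The TRH mean of Dop2R was 444.6 ± 142.9 CPM (SD, n = 4). The log2 fold change was 0.07 ± 0.44 (95% interval -0.97 to 1.10, adjusted p = 0.934, edgeR), so true differences from 0.51-fold to 2.15-fold lie within the interval. The sign of this value turned with the scaling: it was -0.28 with singleton pairing and 0.59 with library totals. Relative to the median of all genes it was -0.60, and -0.65 to -0.69 under the other scalings.

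Dop2R is known as an autoreceptor of dopamine neurons, so the dopaminergic markers were read beside it. ple, tyrosine hydroxylase, stood at 0, 25.5, 300.7 and 63.0 CPM in TRH pools 40, 45, 60 and 57, and DAT, the dopamine transporter, at 0, 26.2, 401.4 and 2.63 CPM. In the sNPFR pool the 2 markers summed to 0.0535 CPM and in the cells to at most 0.219 CPM. The part of dopamine neurons in the Dop2R level was not tested.

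DopEcR (FBgn0035538) lies on chromosome 3L from 4367649 to 4380387, minus strand, with 4291 bases of exon. It stood at 328.1, 239.7, 310.95 and 391.6 CPM in TRH pools 40, 45, 60 and 57. The sNPFR pool had 624.7 CPM and the summed cells 1274 CPM, so all TRH pools were below both sNPFR units, as they were for 8.11% of tested genes. It was the steadiest receptor gene over the TRH pools, with a coefficient of variation of 19.7%, and 82.3% of the 3907 genes varied more.

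In the single cells DopEcR was on the whole abundant, with 1 gap. Cell 10 had 3850.5 CPM and cells 4 and 2 had 2539 and 1293 CPM. Cells 5, 7 and 1 had 821.8, 803.2 and 769.9 CPM, and cell 6 had 341.5 CPM, within the range of the TRH pools. Cell 3 had 0 reads of it among 4.57 M, which allows up to 0.656 CPM in that library. Reads were found for 1317 genes in cell 3, against 4823 in cell 10. Transcript lost before amplification was not measured, so 0 reads do not show that the cell lacked it. So 7 of 8 cells reached 10 CPM (interval 47.3% to 99.7%), and all 7 also reached 100 CPM. Of the 1209 genes at 200 CPM or more in the summed cells, 23.6% reached 10 CPM in at least 7 cells. DopEcR was at 1274 CPM in that sum, far above the cut, so the set is not matched to its level.

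The TRH mean of DopEcR was 317.6 ± 62.5 CPM (SD, n = 4), and the sNPFR pool was 1.97-fold and the summed cells 4.01-fold above it, or 2.59-fold without cell 10. The log2 fold change was -2.18 ± 0.46 (95% interval -3.26 to -1.10, adjusted p = 0.0272, edgeR's quasi-likelihood test). The call held without any one cell (adjusted p = 0.0239 to 0.0316), cell 10 and cell 7 included. It was lost whichever TRH pool was left out (adjusted p = 0.0539 to 0.0828) and with limma-voom (adjusted p = 0.521). The limma-voom standard error for DopEcR was 2.48, and Trh itself did not pass in that fit (adjusted p = 0.437, limma-voom). With the sNPFR pool alone the log2 fold change was -1.29, and with the summed cells alone it was -2.84.

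Levels of different genes were compared per kilobase of exon, in CPM per kb. The length was that of all annotated exons of a gene together, and which transcripts were in use was not tested. Before this division Dop1R1 averaged 150.2 CPM and Dop1R2 55.8 CPM in the TRH pools, so how these 2 compare rests on the length used. In the TRH pools DopEcR averaged 74.0 ± 14.6, Dop2R 68.1 ± 21.9, Dop1R2 10.8 ± 3.13 and Dop1R1 10.3 ± 7.16 CPM per kb (SD, n = 4). The means of DopEcR and Dop2R differed by less than the spread between pools, as did those of Dop1R2 and Dop1R1, while Dop2R lay above both D1-like genes in every pool. Dop2R stood above DopEcR in pools 40, 45 and 60, and DopEcR above Dop2R in pool 57. In the sNPFR pool DopEcR stood at 145.6 and Dop2R at 49.8 CPM per kb, and the D1-like genes at 0.0242 for Dop1R2 and 0.00245 for Dop1R1.

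The D1-like genes together made up part of the receptor transcript in the TRH pools and close to none in sNPFR. Per exon length, Dop1R1 gave 3.03%, 12.6%, 7.25% and 2.57% of the 4 genes' CPM per kb in TRH pools 40, 45, 60 and 57, against 0.00125% in the sNPFR pool. Dop1R2 gave 5.46%, 7.06%, 8.43% and 5.33% in the same TRH pools, against 0.0124% in the sNPFR pool. The cell with the largest share of a D1-like gene was cell 1, with 3.50% from Dop1R2. In the cells 1 receptor gene mostly outweighed the others: DopEcR gave 69.7% to 97.1% in 7 of them and Dop2R gave 100% in cell 3.

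**Figure D2:**
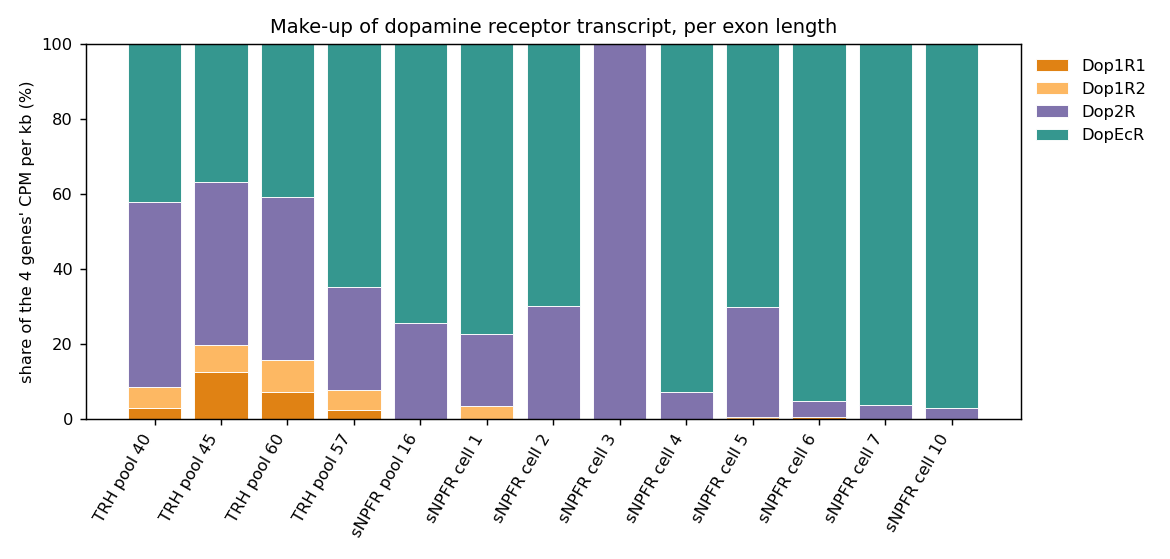
Share of each dopamine receptor gene in the 4 genes' summed CPM per kb of exon, as a percentage for each library. The TRH pools show all 4 genes, with DopEcR from 36.7% to 64.8%, and the sNPFR libraries are mostly DopEcR except cell 3, which is Dop2R.

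The ratio of DopEcR reads to Dop2R reads does not depend on how libraries are scaled. It was 0.560, 0.552, 0.613 and 1.56 in TRH pools 40, 45, 60 and 57, against 1.92 in the sNPFR pool and 4.78 in the summed cells, which became 2.92 without cell 10 and 7.47 without cell 3. The TRH pools lay below both sNPFR units but not below every single cell. Pool 57, at 1.56, was above cell 2 and level with cell 5, and cell 3, with no DopEcR read, was under all TRH pools. On the log2 scale the TRH mean was -0.44 ± 0.72 (SD, n = 4), against 1.60 over the 2 sNPFR units, a difference of -2.04. An exact two-sided permutation test over the 6 units gave p = 0.133, the smallest it can give. In the 7 cells with both genes the ratio ran from 1.51 in cell 2 to 21.8 in cell 10. Cells 4, 6, 7 and 10, at 8.54 to 21.8, lay far from the pool of the same driver.

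The receptors also differed in how many stood together in a library. All 4 genes reached 10 CPM in each of the 4 TRH pools, where a pool mixes cells and says nothing of any one of them. In the sNPFR pool 2 genes did, DopEcR and Dop2R. Of the 8 single cells, cell 1 had 3 receptor genes at 10 CPM or more, 6 cells had 2, and cell 3 had 1. The sNPF-R gene was at 1.53, 0 and 3.33 CPM in cells 3, 5 and 10, while Dop2R there was at 2705, 526.3 and 176.6 CPM.

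Downstream and upstream genes of the pathway were read as 5 lists with 32 genes, of which 31 were tested. Of these, 5 were higher in TRH (16.1%, against 10.6% of all tested genes), none was lower and 26 did not pass. The median log2 fold change of the 31 was 1.41, against 0.67 over all tested genes. Of the 4 genes that make and move dopamine, 2 were higher in TRH. Ddc, the decarboxylase shared with serotonin synthesis, averaged 6596 ± 1076 CPM in the TRH pools (SD, n = 4), against 572.0 CPM for the sNPFR pool and 334.8 CPM for the sum of cells, or 611.8 CPM without cell 7 and 215.0 CPM without cell 4 (adjusted p = 0.00518, edgeR). Vmat, the vesicular transporter that also loads serotonin, averaged 49091 ± 11605 CPM in the TRH pools, against 0 reads in the sNPFR pool (adjusted p = 0.00517, edgeR). With limma-voom its standard error was 8137.7 on the log2 scale, so that fit (adjusted p = 0.999) cannot decide the difference. ple and DAT, which mark dopamine neurons, did not pass (adjusted p = 0.110 and 0.114).

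Of 7 tested G protein genes, Ggamma30A, a gamma subunit, was higher in TRH and 6 did not pass. It stood at 7923, 3168, 8350.0 and 5393 CPM in TRH pools 40, 45, 60 and 57, against 524.3 CPM for the sNPFR pool and 588.9 CPM for the sum of cells (log2 fold change 2.92 ± 0.44, adjusted p = 0.0193, edgeR). The call was lost without pool 60 or pool 57 (adjusted p = 0.0728 and 0.0825). Galphao, an inhibitory alpha subunit, averaged 1983 ± 507.5 CPM over the TRH pools, against 406.7 CPM for the sNPFR pool and 611.0 CPM for the sum of cells, and did not pass (adjusted p = 0.0857). Galphai, the other inhibitory alpha subunit, had 1 read in TRH pool 60 and 0 in each of the other 12 libraries, so it was not tested. Galphas, which activates adenylyl cyclase, stood at 152.2 to 228.1 CPM in the TRH pools and 175.2 CPM in the sNPFR pool, and had 0 reads in cells 1, 2, 3 and 5.

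Of 13 cAMP and calcium effector genes, Pka-R1, a regulatory subunit of protein kinase A, was higher in TRH and 12 did not pass. It stood at 553.1, 713.9, 672.5 and 837.9 CPM in TRH pools 40, 45, 60 and 57, against 183.8 CPM for the sNPFR pool and 96.6 CPM for the sum of cells, which was 203.8 CPM without cell 7 and 35.96 CPM once cell 10 was dropped instead (log2 fold change 1.86 ± 0.43, adjusted p = 0.0344, edgeR). The call was lost without pool 45, 60 or 57 and without cell 7 or cell 10 (adjusted p = 0.0621 to 0.0873), and with singleton pairing and with no filter (0.0714 and 0.0564). Of the 5 desensitisation genes, krz, the arrestin that uncouples and internalises receptors, was higher in TRH and 4 did not pass. It stood at 58.7, 29.9, 17.6 and 72.3 CPM in TRH pools 40, 45, 60 and 57, with 0 reads in all sNPFR libraries (adjusted p = 0.0235), and the call was lost without pool 45, 60 or 57 (adjusted p = 0.0655 to 0.0828). krz and Vmat entered the test through the TRH pools where they were high, so the share of called pathway genes is given as a description. EcR, the nuclear receptor of the ecdysteroids that DopEcR also senses, averaged 135.8 ± 50.3 CPM over the TRH pools, against 150.0 CPM for the sNPFR pool and 86.7 CPM for the sum of cells, or 183.0 CPM without cell 7, and did not pass (adjusted p = 0.791).

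**Figure D3:**
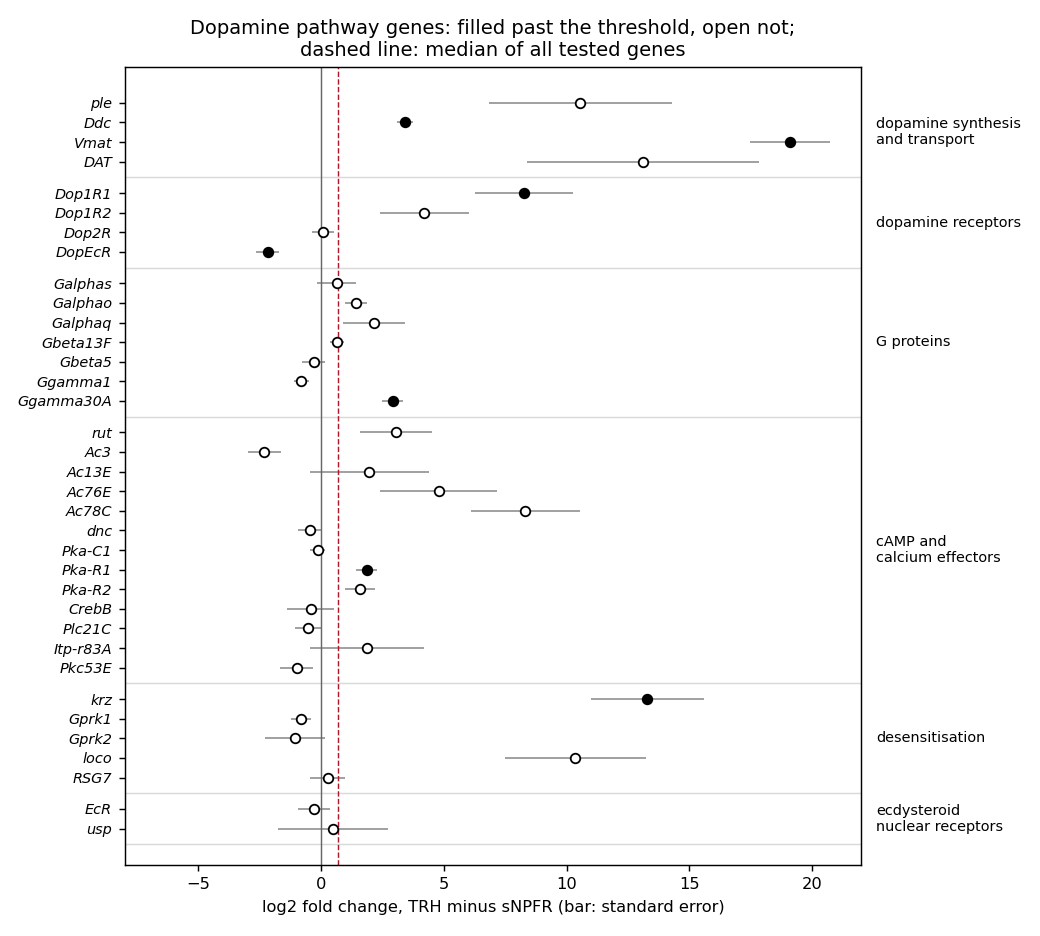
Log2 fold change, TRH minus sNPFR, with its approximate standard error for the dopamine receptor genes and 31 other genes of the pathway, filled where the adjusted p was under 0.05. Among the receptors Dop1R1 lies at 8.26 and DopEcR at -2.18, and the other filled genes, Ddc, Vmat, Ggamma30A, Pka-R1 and krz, lie to the right; the size of a fitted value is not a measured fold where a gene had 0 reads in sNPFR.

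The other amine receptors give the nearest setting for these values. Among the 7 tested genes for octopamine or tyramine receptors, 3 passed as higher in TRH, none as lower, and 4 did not pass. The 3 were Octbeta1R, Octbeta3R and Oct-TyrR, which averaged 279.9 ± 74.5, 78.1 ± 31.0 and 90.5 ± 38.5 CPM over the TRH pools, against at most 1 read per sNPFR unit (adjusted p = 0.00552, 0.0215 and 0.0201, edgeR). With so few sNPFR reads they passed the filter on low counts through the TRH pools, so nothing is read from their number. The last 2 calls were lost without pool 45, 60 or 57, and that of Octbeta1R without pool 57. None of 5 serotonin receptor genes passed. DopEcR was the only one of the 16 tested amine receptor genes that passed as lower in TRH. Over all tested genes 3.03% did, and nothing is read from 1 gene in 16. Whether the 3 families differ in their calls was not tested.

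For each receptor gene the 3 genes with the most similar level across the 13 libraries were found, by Pearson's r of log2(CPM + 1) over the 5418 genes that reached 10 CPM in 3 or more libraries. The libraries share their driver, handling and depth, so r describes these libraries only. For Dop1R1 these were Sema2b (r = 0.993), lncRNA:CR44024 (0.989) and Pax (0.984). Each was at most 0.0356 CPM in the sNPFR pool and peaked among the cells in cell 6, as Dop1R1 did, at 18.1, 6.36 and 8.91 CPM. For Dop1R2 they were CG42238 (r = 0.958), Ac76E (0.951), an adenylyl cyclase gene of the effector list, and CG12159 (0.948). All 3 were highest among the cells in cell 1, at 47.3, 107.7 and 147.7 CPM. For DopEcR they were CG42674 (r = 0.955), CG5946 (0.950) and rudhira (0.946), which were at 0, 0 and 0.437 CPM in cell 3. The likeness was weakest for Dop2R, where CG6983 led (r = 0.798), followed by mxt (0.781) and CG15270 (0.767). Between the receptor genes themselves, r was 0.783 for Dop1R1 with Dop1R2 and -0.494 for Dop2R with DopEcR, with cell 3, which had no DopEcR reads, included.

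No gene annotated in Ensembl release 115 shares exon sequence with any of the 4 receptor genes. Inside introns of Dop2R lie CG9570 and a proline tRNA gene, both on the opposite strand, with 1 and 8 reads over all libraries, and lncRNA:CR44360 lies within DopEcR with 0 reads.

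**Figure D4:**
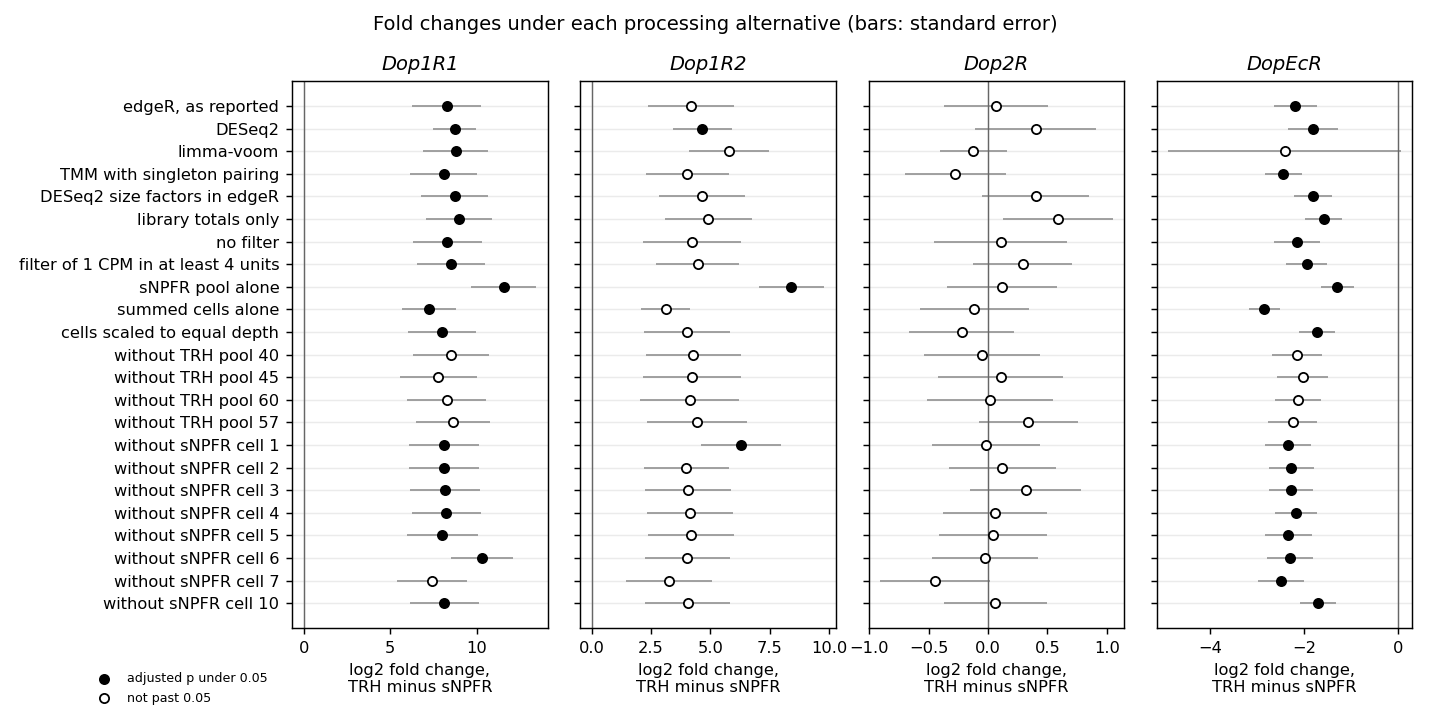
Log2 fold change, TRH minus sNPFR, with its standard error for each dopamine receptor gene under the reported fit and 22 alternatives, filled where the adjusted p was under 0.05. Dop1R1 stayed above 0 and DopEcR below 0 throughout, Dop1R2 was filled in 3 alternatives, and Dop2R lay on both sides of 0 and was never filled.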

How the data were processed

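The authors deposited whole-number read counts per gene for 17737 genes, with no row lacking a gene. STAR, edgeR and build BDGP6 are named per the submitters' processing notes. For their versions, the read counter, its annotation and its use of strand, nothing is stated in these sources. The authors' normalized table was not used, nor was 1 column matching no sample. CPM was computed from column totals. Neither named kit marks strand. Positions and exon lengths came from the BDGP6 annotation of Ensembl release 115, which has exon lengths for 17599 genes.

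The 4 TRH pools were compared with 2 sNPFR units, the pool and the summed cells, using edgeR 4.0.16 in R 4.3.3 (TMM scaling, filterByExpr, Benjamini-Hochberg threshold 0.05), and the test was run on simulated counts. Alternatives were DESeq2 1.42.0, limma-voom (limma 3.58.1), 3 other scalings, 2 filters, each sNPFR unit alone, cells at equal depth, and each pool or cell left out. Python 3.11.15, pandas 2.3.3 and scipy 1.17.1 gave the descriptions.

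Members and gene lists were chosen with earlier results of these data known. Named genes were the receptors, the driver genes, the 3 most similar genes per receptor, overlapping genes and listed markers, some only in list sums. Pathway and amine receptor genes were named where past the threshold or with the smallest p in their list. Galphai, Galphao, Galphas, ple and DAT were also named, after their values were seen.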

Additional observations from a re-analysis of the deposited data

Results flagged for a closer look

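In 3 of the 8 groups of values tested (4 receptor genes, in TRH pools and in single sNPFR cells) the highest library lay far from the rest, by the gap to its neighbour over the whole range. All 3 were in the single cells. Chance flags about 1 in 20 groups of normally distributed values, a rate that need not hold for single cells, of which 2 had 0 reads of Dop1R1 and 4 had 0 reads of Dop1R2. Dop1R1 in cell 6 was 7.63 CPM, with the next cell at 0.667 CPM. Dop1R2 in cell 1 was 42.0 CPM, with the next cell at 8.31 CPM. Dop2R in cell 3 was 2705 CPM, with the next cell at 854.1 CPM, and that cell was also the one with 0 reads of DopEcR.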

How the results depend on the processing

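No paired analysis was possible because the groups share no replicate numbers. The count of 1009 called genes (784 higher, 225 lower in TRH) became 3039 with DESeq2, 2745 with the sNPFR pool alone and 2027 with the summed cells alone, and 16 to 1226 when 1 pool or cell was left out; a lone sNPFR unit is assumed to vary like the TRH pools. The low counts came without pools 45, 60 and 57 (30, 39 and 16 genes), against 989 without pool 40. The share of calls higher in TRH was 77.7%, moving to 67.3% under singleton pairing and 87.9% under library totals. The median log2 fold change of all genes was 0.41 with singleton pairing and 1.28 with library totals.

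Dop1R1 kept its direction in all 22 alternatives and the call in 17. Without 1 pool or cell its log2 fold change was 7.41 to 10.28. DopEcR kept its direction in all 22 and the call in 17. It was -2.41 ± 2.48 with limma-voom (adjusted p = 0.521), and -2.49 to -1.70 without 1 pool or cell. Dop1R2 passed in 3 of 22, at 4.66 with DESeq2 (adjusted p = 0.000814), 8.42 with the sNPFR pool alone and, among values of 3.26 to 6.29 without 1 pool or cell, without cell 1. Dop2R passed in none and turned to lower in TRH in 8: -0.12 with limma-voom, -0.28 with singleton pairing, -0.12 with the summed cells alone, -0.22 with cells at equal depth, and, among values of -0.45 to 0.34 without 1 pool or cell, without pool 40 (-0.05) and cells 1 (-0.02), 6 (-0.03) and 7 (-0.45). EcR turned to 0.0153 with DESeq2 and with its size factors, and to 0.20 with library totals. The causes were not tested. Cells with the gene numbered 1 for Dop1R1 and 2 for Dop1R2 at 1 CPM, and 0 for Dop1R2 at 100 CPM; for Dop2R, 6 cells reached 100 CPM. With 2 sNPFR units, missing the threshold does not show equal levels.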
